A study of Mus musculus with 6 samples.

Results

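Ccl1, Penk, Nrn1, Cd70, Tnfsf11 and Sema6d are 6 of the 33696 features counted in single-cell RNA libraries of CD45+ cells, that is blood-derived cells, sorted from mouse mammary tumours. They were chosen because they led a T-cell group that an earlier look at these data had found more frequent in the 2 libraries labelled d18. Their place in that group and its share by library are therefore a description, and no test was made of either. In the clustering used here the group that they lead was largest among T-like cells of ctxd18t (22.2%), while its 9.22% in combod18t was below the 11.02% of CTX. A gene is called detected in a cell that holds at least 1 of its unique molecular identifiers (UMIs), and such a cell is called its carrier. All 6 genes were detected in T-like cells of each of the 5 libraries analysed.

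The genes encode secreted or surface molecules. Ccl1 is a chemokine made by activated T cells and the ligand of the receptor Ccr8, which is carried by regulatory T cells among others. Cd70 and Tnfsf11 (RANKL) are ligands of the tumour necrosis factor family, for Cd27 and for Tnfrsf11a (RANK) in turn. Penk encodes proenkephalin, the precursor that proteases such as Pcsk1 and Pcsk2 and the carboxypeptidase Cpe cut into opioid peptides. Nrn1 encodes neuritin, a small membrane-anchored protein first described in neurons and also known in regulatory and chronically stimulated T cells. Sema6d is a transmembrane semaphorin that is bound by A-type plexins. Antigen receptor signalling in T cells switches on transcription factors of the NFAT, AP-1, EGR and NR4A families.

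By its title the series is about triple negative breast cancer and pairs cyclophosphamide, an alkylating drug that also acts on immune cells, with blockade of MERTK, a kinase receptor by which macrophages take up dying cells. A single library stands for each label, namely VC, MRX, CTX and Combined, and ctxd18t and combod18t with d18 in their names. What these abbreviate is not stated, and mouse strain, age, tumour model and doses are not given in the sources used here. The protocol, which has the same text on every sample, describes mice at day 7 that were treated 3 hours before harvest, with sorting of CD45+ cells that did not take up the dye DAPI. The d18 in 2 of the labels is read here as day 18. Of VC only the 3656 barcodes were used here. No test between groups was possible with a lone library in each, no p-value was computed, and whether a library came from 1 animal or from a pool is not given. Every interval below is a 95% interval of counting error only.

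The kit marks each sample of a chip by a set of cell barcodes, and the protocol names the sets of Combined, CTX, MRX and VC but none for the d18 libraries. Bases 8 and 9 of the barcode were GT in all 4580 barcodes of Combined and all 4127 of ctxd18t. They were CA in all 9064 barcodes of CTX and all 4085 of combod18t. So the library labelled combod18t used the barcode set of CTX, and the library labelled ctxd18t that of Combined. A set marks 1 sample of a pool, so libraries with the same set came from separate pools, which is read here from the barcodes and not from the labels. Whether sets were given to treatments in the same order in both pools is not stated, and each direction between the d18 libraries below refers to their labels. CTX and combod18t had 34 barcodes in common, Combined and ctxd18t 21, and the other 13 pairs of libraries none. Without the shared barcodes the share of T-like cells with 2 or more of the genes moved from 9.88% to 9.84% in combod18t, from 10.9% to 10.7% in Combined, from 21.8% to 21.9% in ctxd18t and from 14.1% to 14.2% in CTX. The d18 libraries differ from the others by day, as labelled, and by pool together, and these cannot be told apart. The other libraries are called day 7 libraries, after the protocol.

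The 5 libraries held about 39820300 to 100734000 UMIs. After filtering 25653 cells remained, of which 8374 fell in 8 T-like clusters out of 24, made without the 6 genes. T-like cells numbered 1844 in MRX, 1706 in CTX and 975 in Combined, then 1257 in ctxd18t and 2592 in combod18t, or 35.7%, 20.1%, 22.8%, 32.7% and 67.2% of the cells kept. Their median depth was 4712.5, 5547, 5621, 7691 and 6891.5 UMIs in the same order. The 10 T-cell markers were all detected in T-like cells with 2 or more of the genes in every library, with a summed level of 6453 to 7352 CPM (the usual scale that sets counts against all UMIs of the same cells) against 6072 to 6778 CPM in T-like cells with none.

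RefSeq promoter windows (build GRCm38.p6) were available for 3 of the 6 genes, Ccl1, Tnfsf11 and Sema6d. They are shown because the genes were detected in the same T-like cells below, and activation-linked motifs can be read off before each start. Each run holds the 250 bases before the start, 5′ to 3′ on the gene's strand; capitals mark the NFAT core GGAAA, read as TTTCC on the other strand, and TATAAA, read as TTTATA.
Ccl1, chr11:82179813-82180062, minus strand: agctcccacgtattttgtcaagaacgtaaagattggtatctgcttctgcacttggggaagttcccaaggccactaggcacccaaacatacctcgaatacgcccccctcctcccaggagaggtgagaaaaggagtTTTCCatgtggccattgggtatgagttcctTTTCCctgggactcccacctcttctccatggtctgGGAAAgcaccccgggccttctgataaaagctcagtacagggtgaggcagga
Tnfsf11, chr14:78308044-78308293, minus strand: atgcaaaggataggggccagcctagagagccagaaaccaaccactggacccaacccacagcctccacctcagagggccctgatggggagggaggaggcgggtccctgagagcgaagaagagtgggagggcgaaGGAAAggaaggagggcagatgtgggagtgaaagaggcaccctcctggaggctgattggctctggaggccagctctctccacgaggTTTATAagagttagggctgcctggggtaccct
Sema6d, chr2:124653331-124653580, plus strand: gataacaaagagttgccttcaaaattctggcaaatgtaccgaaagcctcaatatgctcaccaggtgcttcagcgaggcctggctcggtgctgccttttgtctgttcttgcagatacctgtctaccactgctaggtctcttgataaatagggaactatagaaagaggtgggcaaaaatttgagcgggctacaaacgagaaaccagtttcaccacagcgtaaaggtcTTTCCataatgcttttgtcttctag

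The Ccl1 window held 3 matches to the NFAT core, at bases 116 to 112, 86 to 82 and 51 to 47 before the start. Tnfsf11 held 1, at bases 117 to 113, and TTTATA at bases 32 to 27. The Sema6d window shown held 1, at bases 25 to 21, and a second Sema6d window, at chr2:124089719-124089968, held none. GGAAA is common: on either strand it occurred in 55.6% of the 32851 promoter windows of this length. AP-1 (TGANTCA), NR4A (AAAGGTCA) and EGR (GCGNGGGCG) motifs, present in 6.75%, 1.34% and 4.70% of windows, had no match in these windows, and TATAAA was present in 12.4%. A match is a run of letters and not a shown binding site.

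Ccl1, the chemokine, had 862 counts over T-like cells in MRX, 3128 in CTX and 1572 in Combined, then 1299 in ctxd18t and 544 in combod18t. Its level was 84.4 CPM in MRX, 238 CPM in CTX, 214 CPM in Combined, 110 CPM in ctxd18t and 24.8 CPM in combod18t. The carriers made up 1.90%, 7.33%, 5.44%, 4.296% and 2.04% of T-like cells in that order. CTX and Combined were thus highest, combod18t was lowest in level, and the shares of MRX and combod18t were not separated by counting error. Ccl1 counts sat in very few cells: the highest single cell held 330, 365, 425, 659 and 80 UMIs, and the 10 highest cells held 93.4%, 54.9%, 78.8%, 87.8% and 73.9% of all Ccl1 counts. A library's Ccl1 level therefore rests mostly on 10 cells. In T-like cells with no UMI of the B, myeloid and NK genes Cd79a, Lyz2, C1qa or Ncr1 the level was 101 CPM in MRX, 248 CPM in CTX and 48.6 CPM in Combined, then 131 CPM in ctxd18t and 19.99 CPM in combod18t, so the place of Combined beside CTX rests on cells that hold such UMIs.

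Cd70, the ligand of Cd27, was at 7.25 CPM in MRX, 26.9 CPM in CTX, 38.4 CPM in Combined, 16.1 CPM in ctxd18t and 6.71 CPM in combod18t. Its carriers were 1.74%, 7.09%, 6.15%, 5.49% and 2.55% of T-like cells. The levels in MRX and combod18t differed by less than counting error, and Combined was highest. Tnfsf11, the RANK ligand, was at 35.2 CPM in MRX, 95.7 CPM in CTX, 123 CPM in Combined, 104 CPM in ctxd18t and 59.4 CPM in combod18t. It was detected in 7.21%, 14.1%, 17.6%, 16.5% and 8.60% of T-like cells. Combined was again highest and MRX lowest, and the levels of CTX and ctxd18t were not separated by counting error. In T-like cells with no UMI of Cd79a, Lyz2, C1qa or Ncr1 neither gene was highest in Combined: Cd70 was then at 17.4 CPM in Combined and 25.8 CPM in CTX, and Tnfsf11 at 91.96 CPM in Combined, 102 CPM in CTX and 104 CPM in ctxd18t, where the interval of the Tnfsf11 ratio of Combined to CTX includes 0 (-0.33 to 0.025).

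Penk, the opioid peptide precursor, was at 91.2 CPM in MRX, 470 CPM in CTX, 314 CPM in Combined, 609 CPM in ctxd18t and 194 CPM in combod18t. Its carriers were 4.23%, 12.1%, 8.41%, 17.0% and 9.14% of T-like cells. The order was ctxd18t, CTX, Combined, combod18t and MRX by level. The highest cells held 99, 546, 305, 682 and 288 Penk UMIs, and the 10 highest cells held 51.9%, 35.8%, 55.2%, 45.1% and 33.1% of the counts. In ctxd18t the same cell, of 14901 UMIs, had the most Ccl1 and the most Penk UMIs.

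Nrn1, neuritin, was at 18.5 CPM in MRX, 44.4 CPM in CTX, 18.1 CPM in Combined, 91.4 CPM in ctxd18t and 40.4 CPM in combod18t. Its carriers were 3.63%, 10.1%, 6.05%, 18.3% and 7.18% of T-like cells. ctxd18t was highest, CTX and combod18t overlapped in their intervals, and so did MRX and Combined. Sema6d, the semaphorin, was at 11.6 CPM in MRX, 26.0 CPM in CTX, 15.4 CPM in Combined, 96.7 CPM in ctxd18t and 60.2 CPM in combod18t. It was detected in 2.11%, 7.03%, 5.54%, 18.3% and 9.38% of T-like cells. Sema6d was the gene of the 6 for which both d18 libraries stood above the other 3 in level and in share.

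In B-like cells of the same libraries the share with a UMI of any single gene of the 6 was between 0% and 1.22%. B-like cells numbered 204 to 628 per library at median depths of 3978 to 7469 UMIs, against 4712.5 to 7691 UMIs in T-like cells. After each cell was thinned to 2000 UMIs, the Sema6d share was 1.05%, 2.19%, 2.30%, 7.98% and 5.15% in MRX, CTX, Combined, ctxd18t and combod18t. The thinned Penk share was 3.22%, 8.60%, 6.90%, 11.6% and 5.73%, the Nrn1 share 2.11%, 4.63%, 2.09%, 7.82% and 2.91%, and the Ccl1 share 0.943%, 4.69%, 3.24%, 2.12% and 1.14%. The thinned Cd70 share was 0.721%, 2.49%, 3.03%, 1.71% and 0.511%, and the Tnfsf11 share 3.72%, 7.71%, 9.94%, 7.82% and 4.36%. The same libraries stayed highest for 5 genes; for Cd70, Combined passed CTX at equal depth.

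**Figure D1:**
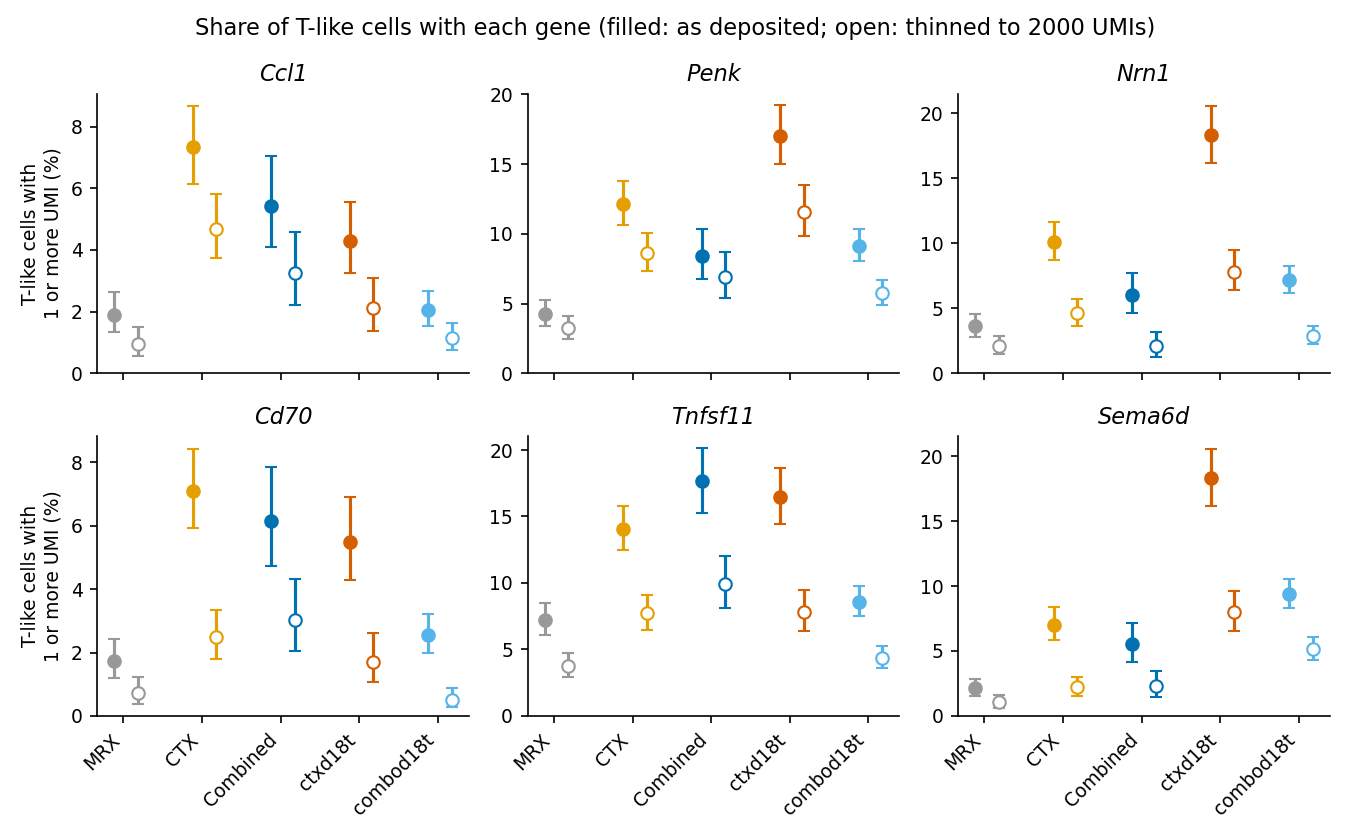
Percent of T-like cells with at least 1 UMI of each gene, by library, as deposited (filled) and after thinning each cell to 2000 UMIs (open); bars are exact 95% binomial intervals. Sema6d is seen in 18.3% of ctxd18t and 9.38% of combod18t T-like cells against 2.11% to 7.03% in the other 3 libraries, while Tnfsf11 peaks in Combined at 17.6%.

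**Figure D2:**
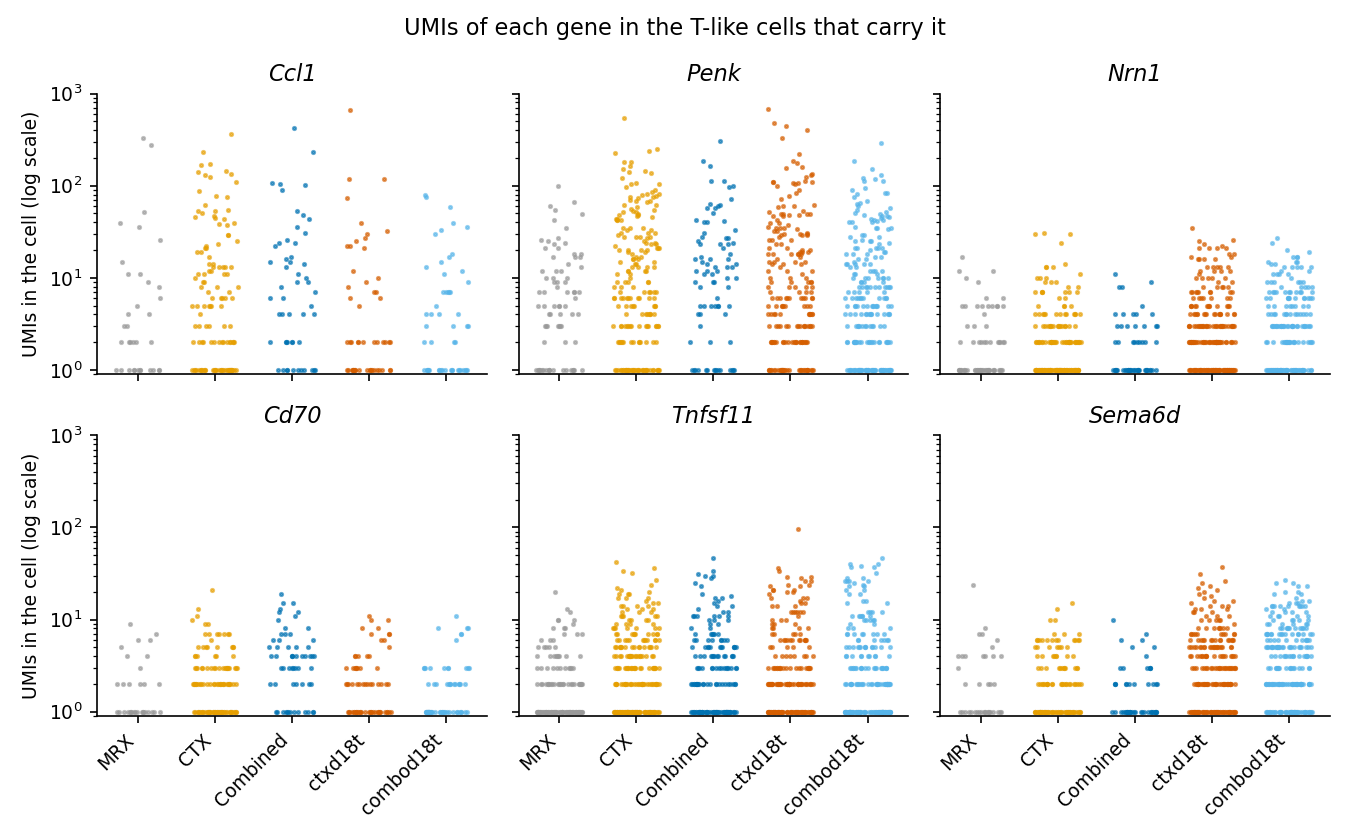
UMIs of each gene in every T-like cell that carries it, by library, on a log axis; each point is a cell. Ccl1 and Penk reach 659 and 682 UMIs in a cell, while Cd70 stays at or below 21, Nrn1 at or below 35 and Sema6d at or below 37.

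T-like cells held 83.6% of all Ccl1 counts of the kept cells, 86.9% of Penk, 82.0% of Nrn1, 81.9% of Cd70, 84.7% of Tnfsf11 and 58.1% of Sema6d. The mixed class, left out of the named ones, held 7.7% to 13.4% of the counts of each gene, and NK-like cells held 15.6% of Sema6d counts and 5.4% of Ccl1 counts. Sema6d was detected in 12.96%, 14.9%, 14.2%, 10.2% and 14.8% of NK-like cells in MRX, CTX, Combined, ctxd18t and combod18t, at 31.0 to 57.1 CPM. Of the d18 libraries, with 108 NK-like cells each, combod18t lay within the range of the other 3 and ctxd18t below it. Migratory dendritic-like cells also carried Sema6d, at 91.0, 41.9, 108, 205 and 97.7 CPM in the same order, from only 14, 32, 10, 26 and 12 cells. Over these 94 cells Cd70 was detected in 10 (10.6%) and Penk in 7 (7.4%), against 4.2% and 9.8% of the 8374 T-like cells. Ccl1 in NK-like cells was at 34.3 CPM in MRX, 32.8 CPM in CTX, 13.001 CPM in Combined, 0 in ctxd18t, where a floor of 3 counts in 108 cells allows a share of cells with a UMI of up to 2.78%, and 2.63 CPM in combod18t.

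The 6 genes were found together in the same cells. T-like cells with 2 or more of them numbered 68 in MRX, 241 in CTX and 106 in Combined, then 274 in ctxd18t and 256 in combod18t, or 3.69%, 14.1%, 10.9%, 21.8% and 9.88% of T-like cells. Thinned to 2000 UMIs these shares were 2.16%, 6.64%, 6.07%, 7.90% and 4.75%. No B-like cell of any library held 2 or more, where a floor of 3 in 204 to 628 cells allows shares of up to 0.478% to 1.47% of cells with such UMIs, and NK-like cells did in 0.926% to 4.63%. All 6 genes were detected in 1, 8, 5, 6 and 12 T-like cells, whose median depth was 16548 to 28171 UMIs. Carriers of 2 or more genes had median depths of 7449 to 12046 UMIs against 4585 to 7014 in T-like cells with none, so both the unthinned and the thinned shares are given; the part of depth in the rest was not tested.

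For each of the 15 pairs of genes, and in all 5 libraries, the second gene was detected more often among carriers of the first than among T-like cells without it. Across T-like cells of a library the median Pearson r of log counts over the 15 pairs was 0.25 in MRX, 0.30 in CTX and 0.30 in Combined, then 0.25 in ctxd18t and 0.37 in combod18t. At 2000 UMIs per cell it was 0.0995, 0.0859, 0.158, 0.133 and 0.160, with 15 of 15 pairs in the same direction in 4 libraries and 14 in Combined. These correlations are over cells of 1 library each, which share their source and depth, and are descriptions.

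Ccl1 and Cd70 had the highest r of the 15 pairs in each of the 5 libraries at full depth, 0.57 in MRX, 0.59 in CTX and 0.68 in Combined, then 0.49 in ctxd18t and 0.53 in combod18t. Among Ccl1 carriers Cd70 was detected in 40.0% in MRX, 57.6% in CTX and 69.8% in Combined, then 46.3% in ctxd18t and 50.9% in combod18t, against 1.0% to 3.7% of cells without Ccl1. Tnfsf11 was detected in 65.7%, 70.4%, 90.6%, 63.0% and 56.6% of Ccl1 carriers, against 6.1% to 14.4% of the others. All 3 of Ccl1, Cd70 and Tnfsf11 were detected in 10 of 35 Ccl1 carriers in MRX, 61 of 125 in CTX, 37 of 53 in Combined, 21 of 54 in ctxd18t and 20 of 53 in combod18t.

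Nrn1 and Sema6d formed a pair whose overlap was larger in the d18 libraries. Sema6d was detected in 13.4% of Nrn1 carriers in MRX, 20.9% in CTX and 18.6% in Combined, but in 54.8% in ctxd18t and 64.5% in combod18t, against 1.7% to 10.1% of cells without Nrn1. Their r was 0.18, 0.16, 0.16, 0.45 and 0.52 in that order. Ccl1 carriers also held Sema6d in 68.5% of cells in ctxd18t and 60.4% in combod18t, against 31.2% to 45.7% in the other 3 libraries. The d18 libraries thus had more Sema6d beside each of these genes, along with more Sema6d in T-like cells as a whole.

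**Figure D3:**
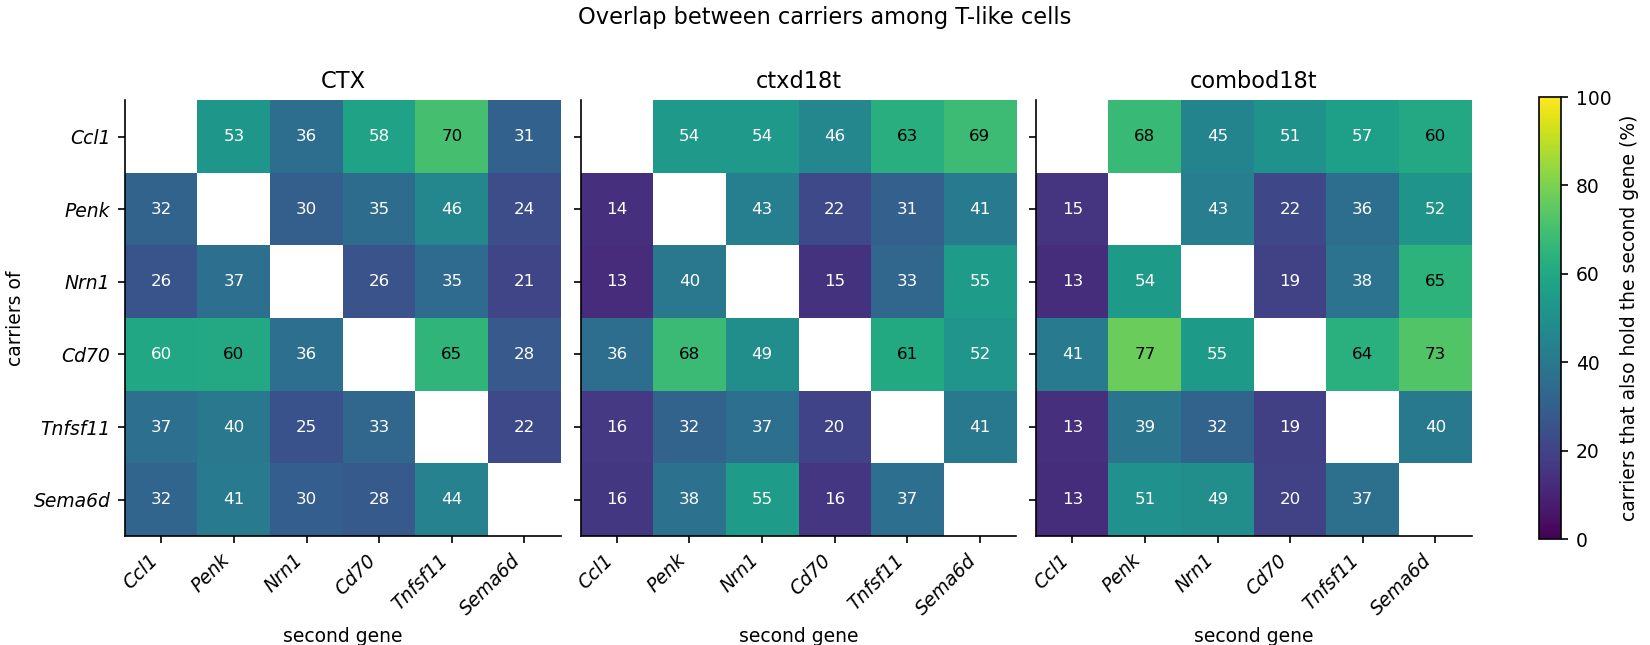
Percent of the carriers of each gene (rows) that also hold the second gene (columns) among T-like cells of CTX, ctxd18t and combod18t, with the percent written in each square. Sema6d is found in 20.9% of Nrn1 carriers in CTX and in 54.8% and 64.5% in ctxd18t and combod18t; Tnfsf11 is found in 70.4% of Ccl1 carriers in CTX.

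T-like cells were divided by UMIs of Foxp3, the defining factor of regulatory T cells, of Cd4, and of Cd8a or Cd8b1. A cell with Foxp3 was put in the Foxp3 group, and the CD4 and CD8 groups hold cells without Foxp3 and without the other coreceptor. CD4 cells made up 35.3% of carriers of 2 or more genes in MRX, 54.8% in CTX and 59.4% in Combined, then 23.4% in ctxd18t and 16.8% in combod18t. CD8 cells made up 41.2%, 23.7%, 9.43%, 49.3% and 44.1%. Foxp3 cells made up 11.8%, 12.4%, 16.0%, 17.2% and 22.7%. In CTX and Combined the carriers were thus mostly CD4 cells, and in MRX and the d18 libraries CD8 cells were the largest group. Among all T-like cells CD8 cells were 56.3%, 40.5%, 31.5%, 45.4% and 26.0%. They were thus a larger part of the carriers than of T-like cells in combod18t, and a smaller part in MRX, CTX and Combined.

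Cells with UMIs of both coreceptors made up 2.94%, 7.47%, 8.49%, 8.39% and 15.2% of these carriers, against 1.30%, 2.11%, 2.36%, 4.77% and 4.86% of all T-like cells. They were deep, with medians of 7116 to 14356.5 UMIs per library over all such T-like cells, and whether they are single cells was not tested.

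**Figure D4:**
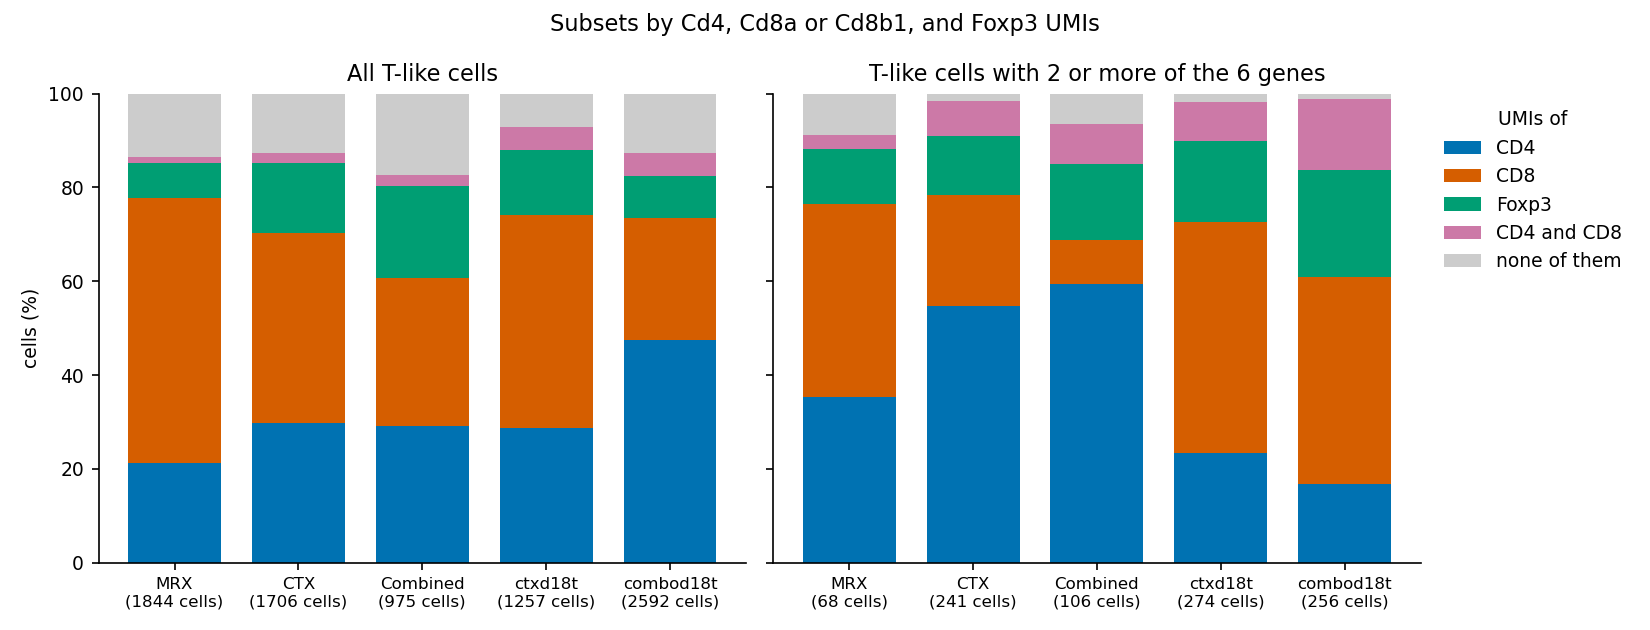
Stacked percent of all T-like cells and of T-like carriers of 2 or more of the 6 genes that fall in each coreceptor or Foxp3 group, by library, with the number of cells under each bar. CD4 cells fill 54.8% and 59.4% of the carriers in CTX and Combined, and CD8 cells 49.3% and 44.1% in ctxd18t and combod18t.

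The share of a subset that carried 2 or more genes did not follow the same split. In MRX, CTX and Combined it was higher in CD4 than in CD8 cells at full depth. In both d18 libraries it was highest in Foxp3 cells and lowest in CD4 cells at full depth. In CD4 cells it was 6.09% (3.94 to 8.93) in MRX, 25.9% (22.2 to 29.97) in CTX and 22.2% (17.5 to 27.5) in Combined, then 17.7% (13.9 to 22.1) in ctxd18t and 3.50% (2.54 to 4.68) in combod18t. In CD8 cells it was 2.69% (1.80 to 3.87), 8.25% (6.31 to 10.6), 3.26% (1.57 to 5.91), 23.6% (20.2 to 27.3) and 16.7% (14.0 to 19.8). In Foxp3 cells it was 5.88% (2.57 to 11.3), 11.9% (8.15 to 16.5), 8.85% (5.24 to 13.8), 27.0% (20.6 to 34.3) and 25% (19.6 to 31.1). These shares are at full depth, and the median depth was 8308 and 7711 UMIs in CD8 cells of ctxd18t and combod18t against 4871 to 6004 in the other 3 libraries, and 8670.5 and 11537 in Foxp3 cells against 5385.5 to 8478. At full depth the CD8 and Foxp3 shares of both d18 libraries lay above those of the other 3 libraries without overlap of the intervals. Thinned to 2000 UMIs the CD8 shares were 1.75% (1.04 to 2.75), 3.04% (1.89 to 4.61), 0.984% (0.203 to 2.85), 6.57% (4.67 to 8.95) and 8.51% (6.51 to 10.9), still without overlap between d18 and other libraries. The thinned Foxp3 shares were 3.88% (1.27 to 8.81), 2.78% (1.12 to 5.64), 0 of 192 cells (a floor of 3 allows 1.56%), 7.56% (4.09 to 12.6) and 7.86% (4.72 to 12.1), and here the d18 intervals overlap those of MRX and CTX. The thinned CD4 shares were 3.59%, 14.5%, 15.96%, 9.78% and 2.21%. Up to 9 cells of a subset were too shallow to thin. At full depth the CD4 share was lowest in combod18t, with an interval that overlaps that of MRX. A T-like cluster led by St8sia6, Lef1 and Igfbp4, cluster 3, held 1023 of the 1230 CD4 cells of combod18t, 148 of 361 in ctxd18t, 64 of 284 in Combined, 197 of 509 in CTX and 120 of 394 in MRX, and a single carrier of 2 or more genes among them. In the CD4 cells outside it the share was 8.76% (5.69 to 12.8) in MRX, 42.0% (36.4 to 47.7) in CTX and 28.6% (22.8 to 35.1) in Combined, then 30.05% (23.97 to 36.7) in ctxd18t and 20.8% (15.5 to 26.9) in combod18t. On that count combod18t was above MRX and below the other 3, with intervals that overlap those of ctxd18t and Combined. In both d18 libraries this CD4 share was above the CD8 share at full depth, with intervals that overlap.

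The genes differed in the subset that held them. Ccl1 in CD4 cells was at 12.1 CPM in MRX, 491.5 CPM in CTX, 574 CPM in Combined, 341 CPM in ctxd18t and 25.9 CPM in combod18t. In CD8 cells Ccl1 was at 140, 156, 64.4, 29.7 and 18.3 CPM, and in Foxp3 cells at 1.09, 1.49, 6.88, 22.8 and 10.6 CPM. CD4 cells therefore held 59.2% of T-like Ccl1 counts in CTX, 77.5% in Combined and 75.6% in ctxd18t. A single ctxd18t CD4 cell had 659 of the 982 CD4 counts there, and without each library's T-like cell richest in Ccl1 the CD4 parts were 53.8%, 69.2% and 50.5%. In MRX CD8 cells held 95.8% of the 862 counts, in 23 carriers of which the highest had 330 UMIs.

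Cd70 in CD4 cells was at 8.68, 65.6, 106, 35.1 and 5.38 CPM in MRX, CTX, Combined, ctxd18t and combod18t, against 4.196 to 9.32 CPM in CD8 cells and 9.14 to 11.98 CPM in Foxp3 cells. Tnfsf11 in CD4 cells was at 104, 264, 334, 283 and 79.6 CPM, against 16.6 to 32.2 CPM in CD8 cells. The CD4 levels of both TNF-family ligands were above the CD8 levels of the same library in all 5 libraries, by the least for Cd70 in MRX (8.68 against 6.27 CPM) and combod18t (5.38 against 4.196 CPM). In Foxp3 cells Tnfsf11 was at 14.2, 22.4, 18.4, 35.9 and 53.4 CPM, highest in the d18 libraries.

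Penk in CD4 cells was at 177 CPM in MRX, 1177 CPM in CTX, 791 CPM in Combined, 1520.1 CPM in ctxd18t and 171 CPM in combod18t. In Foxp3 cells Penk was at 435, 253, 221, 582 and 423 CPM, with carriers making up 22.1%, 22.5%, 14.1%, 37.9% and 31.5% of that subset. CD8 cells were at 24.6, 80.7, 17.5, 109 and 85.8 CPM. In MRX and combod18t the Foxp3 level of Penk was above the CD4 level, and in CTX, Combined and ctxd18t the reverse was found. The order in combod18t turned outside cluster 3, where its CD4 cells had 815 CPM of Penk.

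Over all CD4 cells of the d18 libraries, Nrn1 and Sema6d had lower levels than in CD8 and Foxp3 cells. Outside cluster 3 the CD4 level of Nrn1 was 70.2 CPM in combod18t, above its CD8 and Foxp3 levels, and 100.02 CPM in ctxd18t, just below them, and that of Sema6d was 37.1 and 60.1 CPM, below both. Nrn1 in CD4 cells was at 16.4, 60.5, 31.6, 66.3 and 14.7 CPM in the usual order of libraries. Nrn1 in CD8 cells was at 13.6, 38.2, 6.40, 107 and 65.6 CPM in MRX, CTX, Combined, ctxd18t and combod18t, and in Foxp3 cells at 59.9, 38.8, 22.9, 108 and 59.7 CPM. Sema6d in CD8 cells was at 17.8, 37.3, 18.8, 138 and 127 CPM. In Foxp3 cells Sema6d was at 8.71, 4.47, 1.72, 69.4 and 62.8 CPM, and in CD4 cells at 1.45, 22.6, 22.1, 39.2 and 7.84 CPM. Sema6d was detected in 28.2% of ctxd18t and 20.4% of combod18t CD8 cells against 3.2% to 9.6% in the other 3 libraries.

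**Figure D5:**
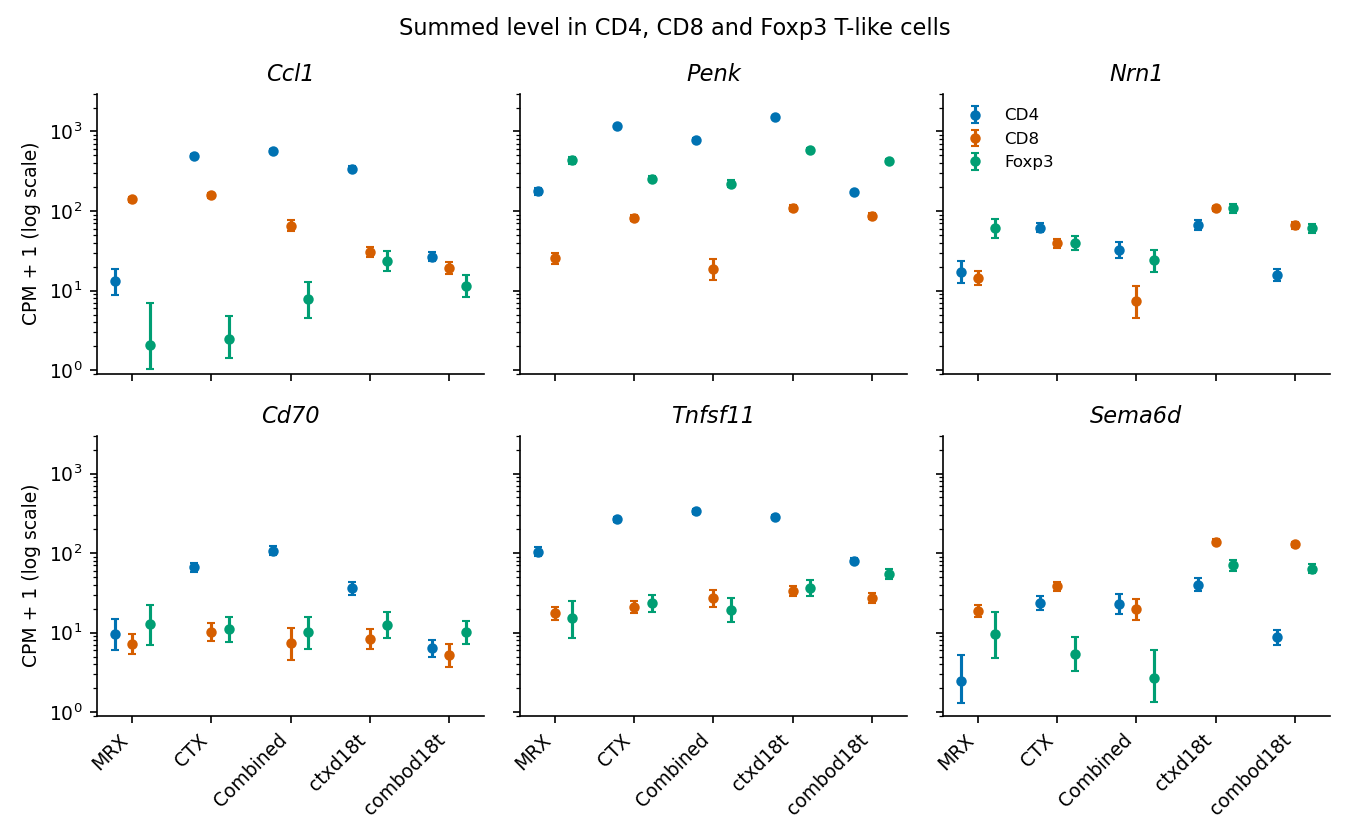
CPM + 1 of each gene summed over CD4, CD8 and Foxp3 T-like cells of each library, on a log axis, with exact 95% Poisson intervals. Cd70 and Tnfsf11 are highest in CD4 cells of Combined (106 and 334 CPM), and Sema6d in CD8 cells of ctxd18t and combod18t (138 and 127 CPM).

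In a clustering made without the 6 genes, a single T-like cluster, cluster 13, held 50%, 60.6%, 54.7%, 73.7% and 72.3% of the T-like carriers of 2 or more genes in MRX, CTX, Combined, ctxd18t and combod18t. Ranked by fold over other cells, its 10 leading genes were Ccl1, Penk, Ifng, Nrn1, Atp2b2, Tnfsf11, Enpp2, Sema6d, Slc16a11 and Cd70, so all 6 were among them. The cluster held 39 cells in MRX, 188 in CTX and 67 in Combined, then 279 in ctxd18t and 239 in combod18t, or 2.11%, 11.02%, 6.87%, 22.2% and 9.22% of T-like cells. Of these 87.2%, 77.7%, 86.6%, 72.4% and 77.4% held 2 or more of the genes. CD4 cells were 15.4%, 56.9%, 76.1%, 17.2% and 12.97% of the cluster and CD8 cells 74.4%, 30.9%, 10.4%, 63.8% and 59.0%. The cluster thus joined mostly CD4 cells in CTX and Combined and mostly CD8 cells in MRX and the d18 libraries.

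Within the cluster the levels followed the subset. In CTX its CD4 cells (107) had 3149 CPM of Penk and 527 CPM of Tnfsf11, and its CD8 cells (58) 457 and 87.4 CPM. In ctxd18t its CD4 cells (48) had 7091 CPM of Penk, 859 CPM of Tnfsf11 and 205 CPM of Sema6d, and its CD8 cells (178) 282, 72.5 and 377 CPM. In combod18t its CD4 cells (31) had 3634 CPM of Penk and 838 CPM of Tnfsf11, and its CD8 cells (141) 361 and 74.9 CPM, with Sema6d at 153 and 492 CPM. Penk and Tnfsf11 were therefore higher in the CD4 cells and Sema6d in the CD8 cells of the cluster in both d18 libraries. Nrn1 was nearly level between them in ctxd18t, at 259.7 CPM (218 to 307) in CD4 and 273 CPM (249.6 to 299) in CD8 cells, and lower in CD4 cells in combod18t, at 171 (129 to 223) against 255 CPM (229 to 284). Sema6d in Foxp3 cells of the cluster was at 216 CPM in ctxd18t and 179.9 CPM in combod18t.

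The libraries labelled combod18t and ctxd18t were compared first. The share of T-like cells with 2 or more genes was 9.88% in combod18t and 21.8% in ctxd18t, a difference of -11.9 points (-14.5 to -9.42). All 6 genes had a lower level in combod18t: the log2 ratio was -2.11 (-2.30 to -2.01) for Ccl1, -1.65 (-1.71 to -1.60) for Penk, -1.16 (-1.31 to -1.05) for Nrn1, -1.15 (-1.58 to -0.94) for Cd70, -0.79 (-0.92 to -0.69) for Tnfsf11 and -0.68 (-0.80 to -0.57) for Sema6d. Here 4 of 6 genes reached a log2 ratio of -1 or below, against 2.61% of the 10412 genes measured, with 2.1% at 1 or above; the members were chosen on the d18 libraries, so nothing is read from that share. Ccl1 was at -0.96 without the 10 cells richest in it. Cluster 3 was 49.8% of T-like cells in combod18t and 15.5% in ctxd18t. Without it the difference in share was -6.14 points (-9.55 to -2.75), and the log2 ratios were -1.61, -1.13, -0.64, -0.69, -0.28 and -0.16 in the order above. At 2000 UMIs per cell the difference in share was -3.15 points (-4.96 to -1.50).

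In CD4 cells the share with 2 or more genes was lower in combod18t by 14.2 points (interval of the difference -18.6 to -10.5), or by 7.57 points (-11.1 to -4.73) at 2000 UMIs per cell, and the log2 ratios were -3.67 for Ccl1 (-2.08 without the T-like cell of each library richest in it), -3.14 for Penk, -2.10 for Nrn1, -2.50 for Cd70, -1.82 for Tnfsf11 and -2.19 for Sema6d. In the CD4 cells outside cluster 3 the share differed by -9.27 points (-17.4 to -0.933), and the ratios were -2.07, -1.51, -0.50, -1.03, -0.20 and -0.68 in the same order. In CD8 cells they ran from -0.70 to -0.11, and the share differed by -6.90 points (-11.4 to -2.44), which turned to 1.94 points (-1.08 to 4.88) at 2000 UMIs per cell. In Foxp3 cells Tnfsf11 was higher in combod18t, at 0.56, while the other 5 ran from -1.04 to -0.14; the share differed by -2.01 points (-10.7 to 6.47), and by 0.302 points (-5.39 to 5.53) at 2000 UMIs per cell, both including 0. Whether subsets differ in this contrast was not tested.

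Combined against CTX is the like contrast of labels at day 7. The share with 2 or more genes was 10.9% in Combined and 14.1% in CTX, a difference of -3.25 points (-5.76 to -0.62), and -0.576 points (-2.44 to 1.44) at 2000 UMIs per cell. The log2 ratios were -0.15 (-0.24 to -0.06) for Ccl1, -0.58 for Penk, -1.25 for Nrn1, 0.50 for Cd70, 0.36 for Tnfsf11 and -0.72 for Sema6d. A single gene, Nrn1, passed 1 in size, against 0.321% of 9358 genes at -1 or below and 0.385% at 1 or above. Which genes pass moved with the processing: Nrn1 was at -0.95 with a pseudocount of 10, and without the 10 cells richest in the gene Ccl1 (-1.20), Penk (-1.08) and Sema6d (-1.13) passed. The positive signs of Cd70 and Tnfsf11 turned to -0.59 and -0.18 when T cells were instead taken as cells with Cd3 or Trac UMIs and no UMI of Cd79a, Lyz2, C1qa or Ncr1, and Sema6d turned to 0.13 at 2000 UMIs per cell.

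Ccl1 was at -2.50 with T cells chosen by those UMIs. In Combined 86.8% of T-like Ccl1 counts lay in cells with a UMI of Cd79a, Lyz2, C1qa or Ncr1, as did 73.8% of Cd70 and 62.3% of Penk counts, although such cells were 35.8% of its T-like cells. In CTX 37.6% of T-like cells held such a UMI and 38.7% of Ccl1, 43.8% of Cd70 and 36.5% of Penk counts. Ccl1 in T-like cells without these UMIs was at 48.6 CPM in Combined and 248 CPM in CTX. The part of these UMIs, or of barcodes that hold more than 1 cell, in the Combined values was not tested.

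In CD4 cells the Sema6d ratio of Combined to CTX was -0.03. The Ccl1 ratio was 0.22, but it was 0.06 (-0.04 to 0.17) outside cluster 3 and -0.074 (-0.20 to 0.051) without the T-like cell of each library richest in Ccl1, which in Combined held 425 of the 1219 CD4 counts. Combined was higher in Cd70 (0.69) and Tnfsf11 (0.34) and lower in Penk (-0.57) and Nrn1 (-0.92). In CD8 cells Combined was lower in Nrn1 (-2.41), Penk (-2.14), Ccl1 (-1.26) and Sema6d (-0.95), while Cd70 was at -0.48 (-1.48 to 0.31), from 15 counts in Combined, and Tnfsf11 at 0.35 (-0.11 to 0.84), both with intervals that include 0. The share of CD8 cells with 2 or more genes differed by -4.99 points (-7.72 to -1.79), or -2.06 points (-3.75 to 0.08) at 2000 UMIs per cell, and that of CD4 cells by -3.75 points (-9.71 to 2.57), or by -13.4 points (-21.2 to -5.09) outside cluster 3 and 1.47 points (-3.60 to 6.97) at 2000 UMIs per cell.

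The d18 libraries were set beside those of day 7 with the matching label, which share libraries with the comparisons above and are given for description. Against CTX, ctxd18t had a share with 2 or more genes higher by 7.67 points (4.87 to 10.5), or 1.26 points (-0.633 to 3.23) at 2000 UMIs per cell. Its log2 ratios were 1.86 for Sema6d, 1.02 for Nrn1, 0.37 for Penk, 0.11 for Tnfsf11, -0.71 for Cd70 and -1.10 for Ccl1, where 3.76% of 9801 genes were at 1 or above and 1.73% at -1 or below. Against Combined, combod18t had ratios of 1.90 for Sema6d, 1.12 for Nrn1, -0.69 for Penk, -1.04 for Tnfsf11, -2.35 for Cd70 and -3.06 for Ccl1, where 8.2% of 10174 genes were at 1 or above and 8.1% at -1 or below. The share differed by -0.995 points (-3.37 to 1.17), and by 7.29 points (4.15 to 10.3) without cluster 3. In T-like cells with no UMI of Cd79a, Lyz2, C1qa or Ncr1 the Ccl1 ratio of combod18t to Combined was -1.24 (-1.54 to -1.02). The other ratios there were 2.01 for Sema6d, 1.13 for Nrn1, -0.41 for Penk, -0.86 for Tnfsf11 and -1.99 for Cd70. Paired by label, Sema6d and Nrn1 stood higher, and Ccl1 and Cd70 lower, in each d18 library than at day 7. Paired by barcode set, combod18t had 40.4 CPM of Nrn1 in T-like cells against 44.4 CPM in CTX, a log2 ratio of -0.13 (-0.29 to 0.02), and 60.2 against 26.0 CPM of Sema6d. On that pairing ctxd18t had 91.4 against 18.1 CPM of Nrn1 in Combined and 96.7 against 15.4 CPM of Sema6d. Sema6d was thus higher, and Ccl1 and Cd70 were lower (log2 ratios of -3.21 and -1.85 for combod18t, -0.95 and -1.21 for ctxd18t), on either pairing, and Nrn1 was higher in both d18 libraries on the label pairing alone. In T-like cells with no UMI of Cd79a, Lyz2, C1qa or Ncr1, Ccl1 was instead higher in ctxd18t (131 CPM) than in Combined (48.6 CPM).

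The share by subset was compared with the same pairing by label. In CD8 cells the share with 2 or more genes was higher by 15.4 points (11.4 to 19.5) in ctxd18t than in CTX and by 13.5 points (9.76 to 16.8) in combod18t than in Combined. In Foxp3 cells it was higher by 15.2 points (7.58 to 23.0) and 16.1 points (9.07 to 22.9). In CD4 cells it was lower, by 8.20 points in size in ctxd18t (-13.6 to -2.61) and 18.7 points in combod18t (-23.9 to -14.1). Outside cluster 3 the CD4 differences were -11.9 points (-19.9 to -3.55) and -7.86 points (-15.9 to 0.346), and the second interval includes 0. At 2000 UMIs per cell the differences were 3.53 points (1.17 to 6.10) and 7.52 points (4.87 to 9.97) in CD8 cells, 4.78 points (0.582 to 9.92) and 7.86 points (4.42 to 12.1) in Foxp3 cells, and -4.71 points (-8.98 to -0.21) and -13.7 points (-18.5 to -9.81) in CD4 cells.

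MRX had the lowest share of T-like cells with 2 or more genes. CTX was above it by 10.4 points (8.60 to 12.3) and Combined by 7.18 points (5.14 to 9.43). All 6 log2 ratios of CTX against MRX passed 1, from 1.10 for Sema6d to 2.35 for Penk, where 2.16% of 9521 genes did and 0.746% were at -1 or below. For Combined against MRX 4 of 6 did, Cd70 (2.26), Tnfsf11 (1.78), Penk (1.77) and Ccl1 (1.33), against 1.81% of 9063 genes, with 0.706% at -1 or below, while Sema6d was at 0.38 and Nrn1 at -0.03. In T-like cells with no UMI of Cd79a, Lyz2, C1qa or Ncr1 the ratios of Combined to MRX were 0.99 for Cd70, 1.61 for Tnfsf11, 1.18 for Penk, -1.04 (-1.28 to -0.83) for Ccl1, -0.042 for Sema6d and -0.30 for Nrn1, so that of Ccl1 turned. Those of CTX to MRX ran from 0.66 for Sema6d to 2.49 for Penk.

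Genes that went with the 6 were sought in CD4 T-like cells of the d18 libraries, by setting carriers of 2 or more genes (64 in ctxd18t and 43 in combod18t) against cells with none (217 and 1108). Carriers were deeper, with medians of 9442.5 against 6562 UMIs and 9083 against 6387.5 UMIs. Of 4581 genes with enough counts, 10.1% had a log2 ratio of at least 1 in both libraries and 5.06% of -1 or below in both, with medians over all genes of 0.08 and 0.10. The contrast is between cells of 1 library and gives no p-value. Both groups lay in different clusters: cluster 3, led by St8sia6, Lef1 and Igfbp4, held 142 of the 217 cells with none in ctxd18t and 1006 of the 1108 in combod18t, and 0 of the carriers. With cluster 3 left out, 75 and 102 cells with none remained, and 4.13% of the same genes were higher in both libraries and 1.86% lower. Each list is therefore also given outside cluster 3. Of the list of receptors and processing genes of the 6, Cd27 alone had enough counts. Over all CD4 cells its log2 ratio was -1.51 in ctxd18t and -0.50 in combod18t. Outside cluster 3 it was -1.78 and -1.16, past -1 in both libraries. A gene entered with 50 CPM in at least 1 group, and 747 of the 4581 genes entered through carriers alone and 369 through cells with none alone. Such genes lean to 1 side by the choice, so the list counts and medians below are a description. Of the 3465 genes at 50 CPM in both groups, 5.48% were higher in both libraries and 3.49% lower.

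Of the 19 genes of the cytokine and chemokine list 9 entered, 6 of them through carriers alone and 1, Il10, through cells with none alone. Of these 9, 8 were higher and Il10 lower in carriers in both libraries; the 2 that reached 50 CPM in both groups, Areg and Ccl5, were higher. The list medians were 3.52 and 4.38, which did not move when the gene at 0 counts was set to its bound. Outside cluster 3, 6 were higher (Csf2, Xcl1, Csf1, Ccl3, Ccl4 and Ifng) and Il10 lower, with medians of 2.38 and 3.06. Those 6 are the genes that entered through carriers alone. Areg and Ccl5 were not higher in both libraries there, at 0.56 and 0.96 and at -0.21 and -1.04. Csf2, the granulocyte-macrophage colony factor, was at 256 CPM in ctxd18t carriers against 0.664 CPM (1 count) in cells with none, a ratio of 386 (68.4 to 15328), and at 247 CPM in combod18t carriers against 0, or at least 615-fold higher over a floor of 3 counts for the group. Xcl1, a chemokine for cross-presenting dendritic cells, was at 315 against 1.99 CPM and 248.8 against 1.07 CPM. Csf1, the macrophage growth factor, was at 118 against 0.664 CPM and 48.0 against 0.936 CPM. Ccl3 was at 189 against 3.99 CPM and 39.3 against 0.936 CPM, and Ifng, the interferon of type 1 responses, named for leading cluster 13 too, at 389 against 33.2 CPM and 207 against 1.47 CPM.

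Of the 12 genes of antigen receptor activation that entered, 11 of them in both groups, 7 were higher and 0 lower, with medians of 1.05 and 1.957. Tnfrsf9 (4-1BB), a costimulatory receptor of recently activated T cells, was at 1158 against 106 CPM in ctxd18t and 831 against 27.0 CPM in combod18t. Bhlhe40, a transcription factor that promotes cytokine production, was at 1218 against 181 CPM and 866 against 42.4 CPM, Nr4a2, an early factor of receptor signalling, at 581 against 95.01 CPM and 655 against 75.8 CPM, and Tnfrsf4 (OX40) at 605 against 155 CPM and 478 against 46.3 CPM. Of the TNF-family ligands other than the members 4 of 6 were higher, Tnfsf4 (117 against 1.33 CPM and 116 against 2.41 CPM), Fasl, Tnfsf10 and Tnfsf8, of which Tnfsf8 alone reached 50 CPM in both groups. Outside cluster 3 the activation list was higher in 3 of 12, Tnfrsf9 (2.01 and 1.90), Bhlhe40 (1.37 and 1.42) and Nr4a2 (1.60 and 1.06), with medians of 0.35 and 0.90, and the ligand list in 2 of 6, Tnfsf4 and Tnfsf10.

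Anergy and exhaustion genes were higher in 7 of 12, with medians of 1.21 and 2.63, and Dgka, a diacylglycerol kinase that dampens receptor signals, was lower. Havcr2 (Tim-3) was at 308 against 10.6 CPM and 220 against 7.22 CPM, Lag3 at 115 against 12.6 CPM and 48.0 against 1.47 CPM, Pdcd1 (PD-1) at 594 against 95.7 CPM and 589 against 27.4 CPM, and Nt5e (CD73) at 129.6 against 35.2 CPM and 142 against 16.3 CPM. All 4 expressed genes of the regulatory list, Ikzf2, Ctla4, Tnfrsf18 and Il2ra, were higher, although these cells held no Foxp3 UMI; 3 of the 4 also stand in the activation or exhaustion lists. Carriers alone let in 4 of the 12 exhaustion genes (Havcr2, Lag3, Nt5e and Tox2) and 1 each of the regulatory (Il2ra) and follicular helper (Tox2) genes. Of the follicular helper list 1 of 4 was higher (Tox2, also in the exhaustion list), with medians of 0.61 and 1.60. Outside cluster 3 the exhaustion list was higher in 3 of 12, Havcr2, Lag3 and Pdcd1, with medians of 0.07 and 0.20. Of these 3 Pdcd1 alone had reached 50 CPM in both groups. The regulatory and follicular helper lists passed in 0 of 4 each, with medians of 0.01 and 0.58 and of -0.07 and 0.24.

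Of the resting and homing genes, which all reached 50 CPM in both groups, 7 of 8 were lower and none higher, with medians of -2.74 and -2.72. Lef1, a factor of naive T cells, was at 134 against 1550.0 CPM and 153 against 2151 CPM, Klf2 at 152 against 1147 CPM and 120 against 834 CPM, and Satb1 at 338 against 2254 CPM and 499.7 against 3839.6 CPM. Ccr7 alone did not pass, at -0.46 and -0.55. Outside cluster 3, 3 of 8 were lower, Lef1 (-1.52 and -1.51), Klf2 (-1.79 and -1.59) and S1pr1 (-3.37 and -1.88), and Ccr7 was higher (1.18 and 1.003), with list medians of -1.01 and -1.05. Cell cycle genes passed in 0 of 3 (medians 0.52 and 1.13), and of the dissociation stress list 1 of 7 was higher (Junb) and 1 lower (Jun), with medians of -0.50 and 1.28. Among other semaphorins Sema4c was higher, at 95.4 against 0.664 CPM (1 count) and 78.6 against 0.802 CPM, and Sema4d did not pass in ctxd18t (0.71). Outside cluster 3 Sema4c stayed higher (5.10 and 5.16), Top2a of the cell cycle list was lower, and of the stress list Hspa1b was higher and none lower.

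By size of difference the 10 highest genes were Csf2, Scin, Xcl1, Lrrk2, Idi2, Nrgn, 8030451A03Rik, Igfbp7, Sema4c and Zc3h12c. All 10 entered through carriers alone, at 5.88 CPM or less in cells with none. Scin, an actin-severing protein, was at 275 against 1.33 CPM in ctxd18t and 460 against 0.134 CPM in combod18t, where the last value is 1 count. Lrrk2, a large kinase, was at 463 against 1.33 CPM and 668 against 5.88 CPM. Nrgn, a calmodulin-binding protein known from neurons, was at 181 against 0.664 CPM and 168 against 0.936 CPM. Idi2, a homologue of the isoprenoid enzyme Idi1, was at 0 in cells with none of both libraries and at 103 and 89.5 CPM in carriers, at least 51.5-fold and 223-fold higher. Xcl1, Nrgn and Lrrk2 were also higher in carriers of MRX, CTX and Combined, at 688, 849 and 1755 CPM against 17.3, 19.9 and 3.57 CPM for Xcl1.

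The 10 lowest were Khdrbs3, Igfbp4, Cpne4, Pde5a, Lef1, Scml4, Ifngr2, Rflnb, Atp1b1 and Treml2. Of these Igfbp4, Pde5a and Lef1 are among the 10 leading genes of cluster 3. Outside cluster 3, with a group at 0 set to the floor of 3 counts, the 10 highest genes were past 1 in both libraries. Those 10 entered through carriers alone, and of the 10 lowest only Lef1 reached 50 CPM in both groups. Both sets were picked by this ratio over all CD4 cells, so their values outside cluster 3 are a description. Of the 10 lowest 7 were past -1, among them Igfbp4 (-2.45 and -2.24); Khdrbs3 was at 0 against 4 and 11 counts, Cpne4 at 0 against 1 and 5, and Treml2 did not pass. Igfbp4, an insulin-like growth factor binding protein, was at 12.8 against 506 CPM and 8.73 against 304 CPM. Khdrbs3 was at 0 in carriers of all 5 libraries and at 39.9 and 108 CPM in d18 cells with none, at least 9.3-fold and 16.5-fold lower in carriers. Ifngr2, a chain of the interferon gamma receptor, was at 21.4 against 262 CPM and 41.5 against 474 CPM. So CD4 carriers had more interferon gamma transcript and less of this receptor chain than CD4 cells with none in both d18 libraries, and outside cluster 3 as well (log2 ratios of 2.08 and 3.86 for Ifng, -2.15 and -1.63 for Ifngr2). Ifng entered through carriers alone and Ifngr2 through cells with none alone.

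In CD8 T-like cells, a contrast added after the data were seen (135 carriers and 354 cells with none in ctxd18t, 113 and 487 in combod18t, of which cluster 3 held 3 and 13 of the cells with none), 6.44% of 4593 genes were higher in both libraries and 3.9% lower. Another T-like cluster, cluster 7, has Lef1 among its 10 leading genes. It was 88.0% CD8 cells in both d18 libraries, with 184 and 376 T-like cells, of which 1 and 0 carried 2 or more genes. The CD8 contrast was not repeated outside it. The activation list was higher in 6 of 13, among them Tnfrsf9 at 1416 against 118 CPM and 1716 against 62.3 CPM. Of 7 cytokine genes 4 were higher (Xcl1, Csf1, Areg and Ccl3), of 10 exhaustion genes 5 were higher and 1 lower, and of 8 resting genes 7 were lower. Carriers were deeper here too, with medians of 10331 against 7538 UMIs and 9206 against 7547 UMIs. Genes entered by the same rule of 50 CPM in at least 1 group. Those that entered through 1 group alone were not counted apart, so these list counts are a description. Ikzf2 (Helios) was at 1501 against 241 CPM and 2602 against 104 CPM, and Ccr8 at 24.4 against 0 CPM and 53.1 against 0.736 CPM. Ccr8 entered through combod18t carriers alone.

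Over all T-like cells of the d18 libraries, thinned to 2000 UMIs, the genes most like the 6 were found by Pearson r between a gene's log count and the number of the 6 genes detected, over 1228 cells in ctxd18t and 2546 in combod18t and 6842 genes. They were Ece1, Itgav, Bhlhe40, Tnfrsf9, Rabgap1l, Rbpj, Stat3, Id2, Runx2 and Scin. Ece1, an endothelin-converting protease, had r of 0.44 and 0.47, Itgav, the integrin alpha-V chain, 0.42 and 0.52, and Tnfrsf9 0.39 and 0.54. The other 7 had r of 0.34 to 0.46. These are likenesses over cells of 2 libraries, with no p-value.

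The partners of the 6 products were looked up by class. Ccr8, the Ccl1 receptor, had 1016 of its 1177 counts in T-like cells, at 13.4, 16.7, 14.6, 21.0 and 13.9 CPM in MRX, CTX, Combined, ctxd18t and combod18t. Foxp3 cells had 62.1, 30.2, 28.7, 51.4 and 33.7 CPM of Ccr8, and CD8 cells 1.71 to 12.9 CPM, highest in combod18t. CD4 carriers of 2 or more genes had 57.0 CPM of Ccr8 in ctxd18t and 61.1 CPM in combod18t, against 5.98 and 1.34 CPM in CD4 cells with none. Cd27, the receptor of Cd70, had 15771 of 21629 counts in T-like cells and was present in every T-like subset at 127 to 348 CPM. In CD4 carriers Cd27 was at 99.7 against 286 CPM in cells with none in ctxd18t and 142 against 201 CPM in combod18t.

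Tnfrsf11a, the receptor of Tnfsf11, had 6564 of 8856 counts in monocyte-macrophage-like cells, at 94.5, 65.5, 60.2, 86.1 and 71.9 CPM in the same order, and reached 144, 288, 185, 210 and 140 CPM in the few migratory dendritic-like cells. T-like cells had 0.588 to 1.11 CPM of Tnfrsf11a. Tnfrsf11b, the decoy receptor, had 130 of 177 counts in epithelial-like cells. Oprm1, the mu opioid receptor, had 563 of 984 counts in T-like cells, at 5.99 to 10.5 CPM, Oprd1, the delta receptor preferred by enkephalins, 30 of 37 counts in migratory dendritic-like cells, and Oprk1 none. Ogfr, the opioid growth factor receptor, was more counted than these, with 6840 of 14915 counts (45.9%) in monocyte-macrophage-like and 3007 (20.2%) in T-like cells. Of the processing enzymes of Penk, Pcsk1 had 159 of 184 counts in T-like cells, at 4.25 CPM in ctxd18t and 0.392 to 2.69 CPM elsewhere, with 17.95 CPM in ctxd18t Foxp3 cells; Pcsk2 had 22 counts in all cells. Cpe had 161 of 377 counts in epithelial-like and 160 in T-like cells, and Mme, which degrades enkephalins, 135 of 261 in epithelial-like cells. Plxna1, a plexin for Sema6d, had 675 of 1079 counts in monocyte-macrophage-like cells. The most counted receptors of Tnfsf11 and Sema6d thus lay outside T-like cells, and those of Ccl1 and Cd70 inside them.

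Markers of other cells in the carriers of 2 or more genes are given as measured. The 12 monocyte-macrophage markers summed to 372, 354, 709, 388 and 664 CPM in carriers of MRX, CTX, Combined, ctxd18t and combod18t and to 612, 667, 610, 456 and 231 CPM in cells with none. Of them Adgre1, Chil3 and Vcan were at 0 in MRX carriers and Vcan in CTX carriers, and all 12 were detected in the other 3 libraries. Lyz2 was at 316 and 278 CPM in Combined and combod18t carriers against 70.0 and 23.6 CPM in cells with none. The 7 B markers summed to 42.7, 1.57, 63.4, 42.3 and 39.7 CPM against 5.23 to 17.5 CPM, with Cd79a, Ms4a1, Pax5 and Fcmr among those at 0 in CTX carriers and Ms4a1 and Pax5 at 0 in MRX carriers. The 8 NK markers summed to 398, 439, 239, 1519 and 944 CPM against 448, 582, 406, 555 and 202 CPM. NK-defining Ncr1 and Klrb1c were at most 11.3 and 1.9 CPM in carriers, and the d18 excess came from Klrd1 (608 and 457 CPM), Prf1, Klrc2 and Klre1. The 6 genes of an innate lymphoid (ILC2) list, of which Il1rl1, Areg, Gata3 and Rora are also known in regulatory T cells, summed to 1157, 1182, 1294, 1322 and 1290.3 CPM in carriers against 438, 493, 804, 452 and 384 CPM. Of that list Rora was at 793 to 973 CPM in carriers, and Rora, Gata3 and Areg were higher in carriers than in cells with none in all 5 libraries. Il13 was at 36.8 against 8.09 CPM in CTX and 29.5 against 0 CPM in Combined, and at most 2.75 CPM in carriers of the other 3, and Il5 was at most 0.72 CPM in carriers. The 5 migratory dendritic markers summed to 986.5 CPM in MRX carriers against 355 CPM, 434 against 431 CPM in CTX, 534 against 404 CPM in Combined, 233 against 421 CPM in ctxd18t and 379 against 633 CPM in combod18t, with Ccl22 at 0 in carriers of all but CTX. Endothelial markers were at 58.5 to 111 CPM in carriers and plasmacytoid dendritic markers at 159 to 254 CPM, against 83.1 to 247 and 99.1 to 273 CPM. The lists for cDC1, cDC2, epithelial, erythroid, fibroblast, neutrophil, plasma and gamma-delta T cells each summed to at most 127 CPM in carriers. In combod18t carriers the cDC1 list was at 127 against 39.6 CPM in cells with none, cDC2 at 74.8 against 6.26 CPM and epithelial at 57.9 against 13.4 CPM, and in ctxd18t carriers the neutrophil list was at 99.4 against 39.1 CPM. The part of these markers in the results was not tested.

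A mixed cluster of deep barcodes, cluster 14, left out of the T-like class, also held carriers of 2 or more genes: 5.56% of 18 barcodes in MRX, 10.0% of 339 in CTX, 5.10% of 98 in Combined, 34.8% of 141 in ctxd18t and 29.7% of 145 in combod18t. Its median depth was 14420.5 to 23965 UMIs. These barcodes were counted in no T-like value.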

How the data were processed

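CD45+ cells were profiled with a multiplexed 10x 3' kit, and the values are raw UMI counts per gene and barcode that the authors deposited, which the labels' protocols credit to Cell Ranger 9.0.1. GRCm39 and Seurat 5.2.0 are named, with no role given, in the submitters' processing notes. The count tables hold 33696 features and no cell annotation.

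From the deposited counts, barcodes with fewer than 200 genes or over 15% mitochondrial counts were removed. The doublet caller's automatic threshold marked at most 0.134% of barcodes and so did not work; barcodes with a doublet score above the value that at most 5% of their library exceeded were removed instead, which with tied scores was 3.98% to 4.94% of barcodes, lowest in the d18 libraries. The remaining cells were clustered together without the 6 genes (scanpy 1.11.5; 2000 variable genes, 30 principal components, 15 neighbours, Leiden resolution 1), and clusters were named from marker lists when at least 3 markers were detected in at least 10% of cells. Clusters with marked signal of a second class were called mixed and left out of the named classes. Counts were summed per library and group of cells and given as CPM, relative to all UMIs of that group. Log2 ratios use CPM + 1, with intervals from the exact conditional binomial for counts, Clopper-Pearson for shares and Newcombe for differences of shares. Detection was also compared after thinning each cell to 2000 UMIs, leaving out shallower cells. Genes entered the contrast of carriers with other cells with at least 100 counts over both d18 libraries and 50 CPM in at least 1 group. Named genes are the 6, up to 4 of each list with the largest ratio, the 10 largest ratios each way in both d18 libraries, and the 10 genes most like the 6 with at least 200 counts; other genes were named after their values were seen. The 6 genes, the lists and the contrasts were chosen with earlier results of these data known. An innate lymphoid list was dropped from naming after the data were seen. The scripts were tested on simulated data. There is 1 library per group, so no test was made. Values of a few listed genes are not reported here.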

Additional observations from a re-analysis of the deposited data

Results flagged for a closer look

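Several genes stood higher in Combined than in CTX but lower in combod18t than in ctxd18t. Each pair of values below gives the log2 ratio of Combined to CTX and then that of combod18t to ctxd18t, and the difference between them was not tested. The directions refer to labels: combod18t used the barcode set of CTX and ctxd18t that of Combined, and with the d18 labels exchanged each second value below would change sign. Over T-like cells Cd70 was at 0.50 and -1.15 and Tnfsf11 at 0.36 and -0.79; the first value of each turned negative, to -0.59 and -0.18, with T cells chosen by UMIs. In CD4 cells Ccl1 was at 0.22 and -3.67, Cd70 at 0.69 and -2.50 and Tnfsf11 at 0.34 and -1.82. The Ccl1 values were -0.074 and -2.08 without the T-like cell of each library richest in it, which held 425 of 1219 CD4 counts in Combined and 659 of 982 in ctxd18t. Outside cluster 3 the values of the 3 genes were 0.06 and -2.07, 0.53 and -1.03, and 0.18 and -0.20. In Foxp3 cells Ccl1 was at 1.66 and -1.04, from 12 counts in Combined and 4 in CTX, in 3 carriers each, and from 37 counts in combod18t and 47 in ctxd18t, of which a single ctxd18t cell held 39. The share of Foxp3 cells with Ccl1 was higher in combod18t, at 5.17% against 3.45%. In cluster 13 Ccl1 was at 0.45 and -1.33 and Tnfsf11 at 0.82 and -0.26. The cells with 425 and 659 Ccl1 UMIs lay in this cluster, whose CD4 cells held 1193 Ccl1 counts in Combined and 972 in ctxd18t. The cluster 13 ratio without these cells was not computed.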

How the results depend on the processing

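No paired analysis was possible because each group has 1 library and the labels give no replicate numbers; for the same reason no replicate could be left out. Of 28 alternative values for the shares of T-like cells with 2 or more genes, 22 stayed within the counting interval. At 2000 UMIs per cell the difference was -3.15 points for combod18t less ctxd18t, -0.576 for Combined less CTX and 1.26 for ctxd18t less CTX. For combod18t less ctxd18t it was -8.26 points when a gene counted from 2 UMIs and -6.14 without cluster 3, an alternative chosen after the data were seen, under which combod18t less Combined was 7.29 points. In CD4 cells that alternative gave -9.27 points for combod18t less ctxd18t, -13.4 for Combined less CTX and -7.86 for combod18t less Combined. Thinning the subsets, also chosen after the data were seen, gave CD4 differences of -7.57 for combod18t less ctxd18t and -13.7 for combod18t less Combined. It reversed the CD8 difference of combod18t less ctxd18t to 1.94 points, and gave 3.53 in CD8 and 4.78 in Foxp3 cells for ctxd18t less CTX and 7.52 and 7.86 for combod18t less Combined.

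Of 108 alternative log2 ratios 72 stayed within the counting interval, 33 moved and 3 reversed. For combod18t against ctxd18t, T cells chosen by UMIs (at least 2 of Cd3e, Cd3d, Cd3g or Trac and none of Cd79a, Lyz2, C1qa or Ncr1) gave -2.63 for Ccl1, -2.05 for Penk, -0.97 for Tnfsf11 and -0.83 for Sema6d. A pseudocount of 10 gave -1.79 for Ccl1, -1.01 for Nrn1 and -0.64 for Cd70. Without cluster 3 the values were -1.61 for Ccl1, -1.13 for Penk, -0.64 for Nrn1, -0.69 for Cd70, -0.28 for Tnfsf11 and -0.16 for Sema6d. Without the 10 cells richest in the gene Ccl1 was at -0.96 and Penk at -1.36. Clustering at resolution 2 gave -1.92 for Ccl1, kept doublets -1.73 for Penk, scaling by the median of ratios -1.60 for Penk, and 2000 UMIs per cell -1.999 for Penk and -0.96 for Tnfsf11.

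For Combined against CTX, T cells chosen by UMIs gave -2.50 for Ccl1 and -1.28 for Penk, and reversed Cd70 to -0.59 and Tnfsf11 to -0.18. At 2000 UMIs per cell Sema6d reversed to 0.13 and Ccl1 was at -0.44. Without the 10 richest cells Ccl1 was at -1.20, Penk at -1.08, Cd70 at 0.18, Tnfsf11 at 0.20 and Sema6d at -1.13. Kept doublets gave -0.40 for Ccl1 and -0.68 for Penk, the median of ratios -0.25 and -0.68, and a pseudocount of 10 gave -0.95 for Nrn1. Against MRX, T-like cells with no UMI of Cd79a, Lyz2, C1qa or Ncr1, chosen after the data were seen, reversed Combined to -1.04 for Ccl1 and -0.042 for Sema6d. In CD4 cells, without the cell richest in Ccl1, its ratio reversed to -0.074 for Combined against CTX and was -2.08 for combod18t against ctxd18t. Median-of-ratios scaling moved the median gene by -0.05 and 0.10, and the causes of these shifts were not tested.

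In the contrast of CD4 carriers with cells with none, 462 genes were higher and 232 lower in both d18 libraries, 189 and 85 outside cluster 3, and 190 and 121 among genes at 50 CPM in both groups; both alternatives were chosen after the data were seen. With at least 2 UMIs asked of Foxp3, Cd4 and Cd8, Foxp3 cells were 7.88% of carriers in CTX and 12.8% in ctxd18t. The median r over 15 pairs at 2000 UMIs per cell was 0.0995 in MRX, 0.0859 in CTX and 0.158 in Combined, then 0.133 in ctxd18t and 0.160 in combod18t.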

Other observations

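Kit, the stem cell factor receptor and a marker of mast cells, was found with the 6 genes. Its level in T-like carriers of 2 or more genes was 54.6 CPM in MRX, 58.6 CPM in CTX, 73.5 CPM in Combined, 131 CPM in ctxd18t and 178 CPM in combod18t, against 3.01 to 5.16 CPM in T-like cells with none. The mast cell and basophil genes Cpa3, Ms4a2 and Fcer1a were at 0 in these carriers in all 5 libraries, and Mcpt8 was at 0.31 CPM in CTX carriers, 0.27 CPM in ctxd18t carriers and 0 in the other 3.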
